A study of Mus musculus with 6 samples.

Results

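The genes described here are 33 genes of glycolysis and of the transcriptional response to low oxygen, chosen by symbol from the 25239 genes listed in a bulk RNA-seq count table of mouse thyroid organoids. They comprise 4 transporters of glucose and lactate, 11 genes of upper glycolysis (glucose to triose phosphates), 6 of lower glycolysis (triose phosphates to pyruvate), 2 that decide the fate of pyruvate, and 10 hypoxia response genes that are not part of glycolysis. All 33 were listed and all 33 had enough counts to be tested, among 15256 tested genes. The organoids came from a mouse embryonic stem cell line, selected as a clone, that turns on Nkx2-1 and Pax8 under doxycycline and in which a bovine thyroglobulin (bTg) promoter drives a Braf V637E-ERT2 fusion, so that the fusion is confined by design to cells that use this promoter. All organoids received doxycycline at 1 ug/ml for 5 days to start thyroid differentiation and 8-Br-cAMP for 2 weeks, were enriched for follicles by passage through filters and were collected at day 31.

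The 3 groups hold 2 libraries each. The cAMP organoids carry the fusion too, stayed in 8-Br-cAMP and, by the methods, were given ethanol, the vehicle of 4OHT. The 4OHT organoids were given 8-Br-cAMP and 4-hydroxytamoxifen at 1 uM, for 5 days by the protocol, which activates the Braf V637E fusion, the mouse counterpart of the human V600E mutation. The PD+LY organoids received 8-Br-cAMP, 4OHT at 1 uM and, for 3 days, the MEK inhibitor PD0325901 at 250 nM together with the PI3K inhibitor LY204002 at 5 uM. The inhibitors were started after a first period in 4OHT alone, so the total time in 4OHT may differ between the 4OHT and the PD+LY organoids, and this difference and the inhibitors cannot be told apart. No group analysed here received 1 inhibitor without the other, the inhibitors without 4OHT, or 4OHT without the fusion. Each library was made from pooled wells, and cells other than thyrocytes, in which the fusion should be silent but the inhibitors can act, remain after enrichment. Because the samples are bulk, fewer cells of a type and less RNA per cell cannot be told apart.

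Glycolysis converts glucose to pyruvate in the cytosol. Glucose enters through GLUT transporters, hexokinase traps it, phosphofructokinase commits it, and pyruvate is either turned to lactate by lactate dehydrogenase and exported by monocarboxylate transporters or taken into mitochondria. Under low oxygen the transcription factor HIF-1 is no longer marked for destruction by prolyl hydroxylases and VHL, binds a short core sequence in DNA and raises most glycolytic enzymes, their transporters and genes for angiogenesis, mitophagy and collagen hydroxylation. Signalling through the MAPK and PI3K pathways can raise the same genes at normal oxygen, in part by raising translation of HIF-1 alpha.

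The libraries held 14898409 to 20637959 counts, so that 1 count was 0.0486 to 0.0667 CPM (counts per 1000000 counts, scaled by TMM). Within 4OHT, replicate 1 was lower than replicate 2 in 30 of the 33 genes, with a median difference of 0.21 on the log2 scale against 0.001 over all tested genes. The same count was 18 in cAMP and 20 in PD+LY. For 4OHT against cAMP and PD+LY against 4OHT, the number of members called is therefore given below also without each 4OHT library. The log2 fold changes of most single genes and the other gene lists are not given in this way. All of the 10 thyroid follicular cell markers had counts in every library, and their summed level was 1649.7 and 1105 CPM in cAMP, 571 and 762 in 4OHT and 1977 and 986 in PD+LY. The mesenchymal markers (8 of 8 with counts) summed to 1176 and 1274 CPM in cAMP, 2202 and 2324 in 4OHT and 4612 and 3960.1 in PD+LY. They included Col1a1, Col1a2 and Col3a1, which rose in both comparisons in turn, but the 8 did not move as 1 set. From cAMP to 4OHT, 4 of them were called higher and 0 lower. Adding the inhibitors left 3 called higher and 2 called lower than with 4OHT alone, 1 of the 2 past 2-fold. Relative to cAMP, PD+LY had 4 called higher and 2 called lower, again 1 of the 2 past 2-fold. Over all tested genes the shares called higher and lower were 4.04% and 4.35% in 4OHT against cAMP. They were 10.7% and 12.1% in PD+LY against 4OHT, and 12.1% and 13.7% in PD+LY against cAMP. The pluripotent cell markers (8 of 8) summed to 3582 and 3402 CPM in cAMP, 4115 and 3927 in 4OHT and 4141 and 4387 in PD+LY, the epithelial ones (6 of 6) to 999 and 1080.1 CPM in cAMP, 811 and 902 in 4OHT and 764 and 803 in PD+LY and the cycling cell ones (8 of 8) to 2963 and 2863 CPM in cAMP, 2718 and 2743 in 4OHT and 2519 and 2572 in PD+LY. The endothelial markers (7 of 8 tested, Emcn too low) summed to 183 and 176 CPM in cAMP, 196 and 199 in 4OHT and 172 and 173 in PD+LY, most of it Pecam1. The sum does not show the single markers. Of the 7, 1 rose and 3 fell in 4OHT against cAMP, all 3 past 2-fold, where 4.04% and 4.35% of all tested genes rose and fell. In PD+LY against cAMP 0 rose and 5 fell, where 12.1% and 13.7% of all tested genes did. The neural markers (5 of 5 tested) summed to 59.4 and 53.6 CPM in cAMP, 39.2 and 33.8 in 4OHT and 50.2 and 50.04 in PD+LY. Emcn was at 0 in both PD+LY libraries and the neural marker Dcx in 4OHT replicate 2. The part of any of these cell types in the changes of the 33 genes was not tested.

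The comparison of 4OHT with cAMP, called the first step below, asks what activation of Braf V637E did to these genes. No member rose and 14 of 33 fell at an adjusted p under 0.05 (edgeR quasi-likelihood test with Benjamini-Hochberg adjustment over 15256 genes), where 4.04% of all tested genes rose and 4.35% fell. None of the 33 passed 2-fold as well, against 1.17% of all genes upward and 1.51% downward. The median log2 fold change of the 33 was -0.24, with 23 values below 0, against -0.002 over all tested genes. The 14 were all 4 transporters, Pfkl and Tpi1 of upper glycolysis, Gapdh, Pgk1, Eno1 and Pkm of lower glycolysis, Ldha and Pdk1, and the hypoxia response genes Bnip3 and Egln3. The calls depended on single libraries: without 4OHT replicate 1 only Pdk1 was still called, without 4OHT replicate 2 there were 9 calls and without either cAMP library 7. Over all genes the calls fell from 1280 to between 194 and 558 in the same 4 fits, in which 1 group is left with a single library.

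The comparison of PD+LY with 4OHT, the second step, asks what MEK and PI3K inhibition did in organoids with active Braf V637E. Again no member rose, and 23 of 33 fell, where 10.7% of all tested genes rose and 12.1% fell. Aldoc, Ankrd37 and Vegfa also passed 2-fold, as did 4.90% of all genes downward and 2.35% upward. The median of the 33 was -0.46, with 29 below 0, against 0.008 over all genes. Without 4OHT replicate 2 the calls dropped to 10, namely Gpi1, Pfkp, Pfkfb3, Aldoc, Pgk1, Pdk1, Ankrd37, Vegfa, P4ha1 and Ndrg1, and these 10 were called without any 1 of the 6 libraries. Without any 1 of the other libraries 21 to 23 members were called. Over all genes the calls went from 3469 to 1140 without 4OHT replicate 2.

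PD+LY against cAMP, the change over both steps, does not use the 4OHT libraries except for the shared estimate of spread. In it 25 of 33 members fell and 2, Hk1 and Mxi1, rose, where 13.7% of all tested genes fell and 12.1% rose. Past 2-fold there were 8 members, all lower: Slc16a3, Aldoc, Pgk1, Eno1, Pdk1, Bnip3, Ankrd37 and Egln3. Over all genes 6.24% passed 2-fold downward and 3.00% upward. The median of the 33 was -0.80, against 0.005 over all genes. Of the 27 calls 25 held without any 1 library, the exceptions being Eno2 and Mxi1. In 17 of the 33 genes both cAMP libraries were above both 4OHT libraries and these above both PD+LY libraries, an order that 1008 of the tested genes (6.61%) showed.

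**Figure D1:**
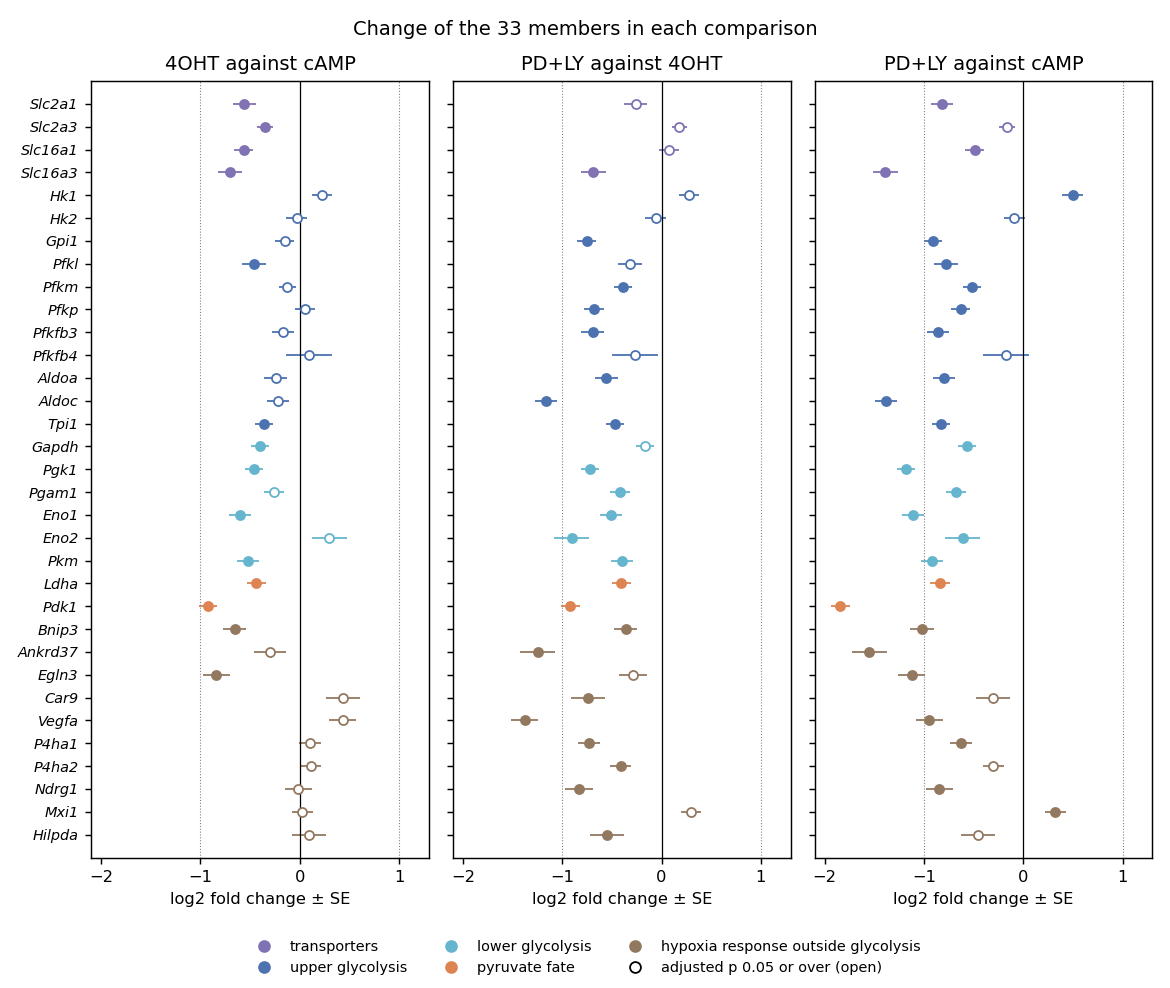
Log2 fold change (horizontal axis) with its standard error for each of the 33 genes in the 3 comparisons, filled where the adjusted p is under 0.05 and coloured by role, with dotted lines at 2-fold. Filled points lie left of 0 in all 3 panels, except Hk1 and Mxi1 in PD+LY against cAMP.

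The promoters of these genes were read for the core sequence that HIF-1 binds. Since many of the genes were chosen as members of the response to low oxygen, whose genes are known as targets of HIF-1, the share with this sequence is a description and not independent of the choice. RefSeq promoter windows (GRCm38.p6, 250 bases before to 50 bases after each annotated start) were matched for 31 of the 33 genes, all but Slc2a3 and Ndrg1. The letters ACGTG, the core of the hypoxia response element, were found on either strand in a window of 23 of these 31 genes (74.2%), against 28.4% of the 11974 tested genes with a window. Of single windows 27 of 48 (56.2%) held it, against 19.6% of all 32851. This background by window also takes in genes that were not tested, so it is not like the one by gene. By gene, 21.8% of all 27025 genes with a window held the letters, fewer than among tested genes. All 9 hypoxia response genes with a window and all 3 such transporters had a match. So had 6 of 11 genes of upper and 4 of 6 of lower glycolysis and 1 of the 2 pyruvate genes. The first window of Vegfa (chr17:46032328-46032627), at the start of the gene, had no match. Its only match lay in a second window (chr17:46025114-46025413), inside the gene, whose upstream part overlaps an exon of Vegfa. For Hk1, Aldoc and Gapdh the only matches lay after an annotated start. The palindrome CACGTG, the E-box bound by MYC family factors, contains ACGTG on both strands and was present in 5 of the 31 genes (16.1%), against 11.4% of tested genes. In PD+LY against cAMP 17 of the 23 genes with ACGTG and 7 of the 8 without it fell, with median log2 fold changes of -0.80 and -0.80. These are matches of letters, not sites of binding.

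The windows of 5 genes are shown to set genes with and without a match beside their change, each as the 250 bases upstream of the start on the gene's own strand, 5' to 3', with matches of ACGTG or its reverse complement in capitals. None of these stretches overlaps an annotated exon. Pgk1 fell at both steps and has matches 150 and 131 bases before its start. Ldha also fell at both steps and has 5 matches, of which 4 lie in a pair of E-boxes. The start of this Ldha window did not match that of a GENCODE M21 transcript, and the second RefSeq window of Ldha (chr7:46846832-46847131), whose start did, has no match of ACGTG. Pdk1 also has a second window, likewise with no match. P4ha1 fell under the inhibitors and has 1 match 16 bases before the start. Hk2 changed in no comparison and has matches 226 and 52 bases before the start. Pdk1 had the lowest log2 fold change of the 33 genes in PD+LY against cAMP and no match.
Pgk1 (chrX:106186850-106187099, plus strand): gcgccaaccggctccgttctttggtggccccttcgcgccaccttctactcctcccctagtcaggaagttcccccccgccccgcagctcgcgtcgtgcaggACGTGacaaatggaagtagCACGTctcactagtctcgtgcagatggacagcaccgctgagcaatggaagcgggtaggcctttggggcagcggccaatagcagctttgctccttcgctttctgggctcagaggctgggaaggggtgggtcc
Ldha (chr7:46845554-46845803, plus strand): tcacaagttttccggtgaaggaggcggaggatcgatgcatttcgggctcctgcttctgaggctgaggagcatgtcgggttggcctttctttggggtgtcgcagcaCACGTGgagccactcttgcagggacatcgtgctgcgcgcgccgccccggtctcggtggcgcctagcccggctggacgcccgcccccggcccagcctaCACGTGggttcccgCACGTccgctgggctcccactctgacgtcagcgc
P4ha1 (chr10:59323046-59323295, plus strand): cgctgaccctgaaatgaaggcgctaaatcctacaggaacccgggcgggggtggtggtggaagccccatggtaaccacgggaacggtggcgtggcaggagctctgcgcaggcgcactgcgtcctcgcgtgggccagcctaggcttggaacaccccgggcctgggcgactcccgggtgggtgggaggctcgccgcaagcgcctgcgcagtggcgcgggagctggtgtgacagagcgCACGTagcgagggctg
Hk2 (chr6:82774455-82774704, minus strand): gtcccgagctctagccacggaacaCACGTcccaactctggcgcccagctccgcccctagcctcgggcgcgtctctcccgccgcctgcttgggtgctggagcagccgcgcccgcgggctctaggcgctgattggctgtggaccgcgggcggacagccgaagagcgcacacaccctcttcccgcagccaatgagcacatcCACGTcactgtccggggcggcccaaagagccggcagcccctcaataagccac
Pdk1 (chr2:71872974-71873223, plus strand): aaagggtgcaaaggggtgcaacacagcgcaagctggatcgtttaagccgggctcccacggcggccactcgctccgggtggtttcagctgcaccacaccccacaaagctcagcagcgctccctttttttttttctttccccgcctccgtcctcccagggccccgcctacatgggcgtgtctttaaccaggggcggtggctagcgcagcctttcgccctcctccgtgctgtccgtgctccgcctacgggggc

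**Figure D2:**
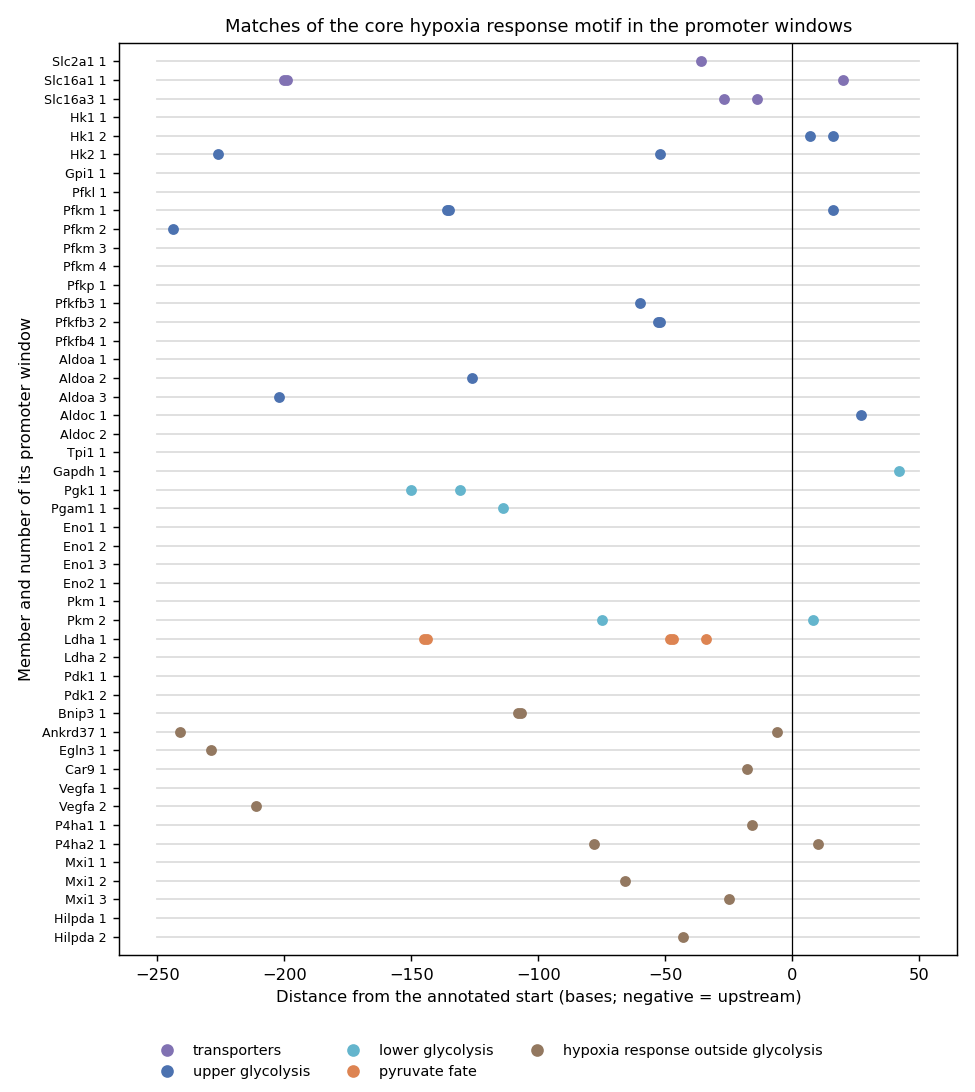
Distance in bases (horizontal axis) of each ACGTG match from the annotated start in the 48 promoter windows of 31 genes, 1 row per window, coloured by role. Paired points that nearly coincide are E-boxes, which match on both strands, and 21 windows have no point.

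Among the transporters, Slc16a3 (MCT4, the exporter of lactate from glycolytic cells) had 241 and 265 CPM in cAMP, 137 and 174 in 4OHT and 90.2 and 103 in PD+LY (gene body chr11:120948480-120960868 in GRCm38, GENCODE M21). The 3 groups did not overlap and fell in that order. Its log2 fold change was -0.70 ± 0.12 (SE; adjusted p = 0.0054) in 4OHT against cAMP, -0.69 ± 0.12 (SE; adjusted p = 0.0023) in PD+LY against 4OHT and -1.39 ± 0.12 (SE; adjusted p = 1.4e-05) in PD+LY against cAMP. Slc2a1 (GLUT1, the basal glucose transporter) fell at the first step, with a log2 fold change of -0.56 ± 0.11 (SE; adjusted p = 0.011), and over both steps, with -0.82 ± 0.11, while its second step was -0.26 ± 0.11 (SE; adjusted p = 0.11). Slc16a1 (MCT1, which carries lactate and pyruvate in either direction) fell, with a log2 fold change of -0.57 ± 0.10 (SE; adjusted p = 0.0053), at the first step and was 0.08 ± 0.10 (SE; adjusted p = 0.61) at the second. Slc2a3 (GLUT3, a high-affinity glucose transporter) was the only transporter not called between PD+LY and cAMP (log2 fold change -0.17 ± 0.08). Its level was 2618 and 2542 CPM in cAMP, 1908 and 2146 in 4OHT and 2306 and 2288 in PD+LY, so that 4OHT was lowest and the PD+LY libraries stood between the other groups. Set per length, Slc2a3 made up 46.0% in cAMP, against 49.7% in 4OHT and 57.2% in PD+LY of the summed Slc2a1 and Slc2a3 level, and Slc16a1 made up 51.7% in cAMP, against 54.2% in 4OHT and 66.5% in PD+LY of the summed level of the lactate transporters. These shares have no test.

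In upper glycolysis 2 of 11 genes fell at the first step, 7 at the second and 8 over both steps, and 1 rose over both. Of all tested genes 4.35%, 12.1% and 13.7% fell in the same 3 comparisons, and 12.1% rose over both steps. Aldoc (aldolase C, the form typical of brain) had the lowest log2 fold change of these 11 at the second step and over both steps, but not at the first. It stood at 72.3 and 68.7 CPM in cAMP, 58.8 and 62.2 in 4OHT and 26.4 and 27.5 in PD+LY (gene body chr11:78322968-78327781). Both PD+LY libraries were more than 2-fold under every other library. The log2 fold change was -0.22 ± 0.11 (SE; adjusted p = 0.24) at the first step, -1.16 ± 0.11 (SE; adjusted p = 4.2e-05) at the second and -1.38 ± 0.11 (SE; adjusted p = 7.0e-06) overall. Aldoa, the main aldolase here and by level per length the highest of the 33 genes (1135 CPM per kb over the 6 libraries), fell, with a log2 fold change of -0.55 ± 0.11 (SE; adjusted p = 0.0050), under the inhibitors. Gpi1 (glucose-6-phosphate isomerase) was close between cAMP and 4OHT (log2 fold change -0.15 ± 0.09) and fell, with a log2 fold change of -0.76 ± 0.09 (SE; adjusted p = 0.00025), in PD+LY. All 3 phosphofructokinase subunits were lower in PD+LY than in cAMP. Their log2 fold changes were -0.78 ± 0.12 (SE; adjusted p = 0.00064) for Pfkl, -0.51 ± 0.09 (SE; adjusted p = 0.0016) for Pfkm and -0.63 ± 0.10 (SE; adjusted p = 0.00071) for Pfkp. Of these 3, Pfkl was called at the first step, and Pfkm and Pfkp at the second. Pfkfb3, which makes the activator of phosphofructokinase, fell, with a log2 fold change of -0.69 ± 0.11 (SE; adjusted p = 0.0012), in PD+LY against 4OHT, and Tpi1 (triose phosphate isomerase) fell at both steps, with -0.36 ± 0.09 and -0.46 ± 0.09.

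The hexokinases went another way. Hk1, the form bound to mitochondria in most tissues, had 174 and 187 CPM in cAMP, 204 and 216 in 4OHT and 232 and 276 in PD+LY. It was lowest in cAMP and highest in PD+LY without overlap, and rose, with a log2 fold change of 0.50 ± 0.10 (SE; adjusted p = 0.0042), in PD+LY against cAMP, while neither step alone was called. Hk2, the form that HIF-1 and growth signals raise in many cells, had 327 and 288 CPM in cAMP, 275 and 326 in 4OHT and 275 and 302 in PD+LY. The ranges of its 3 groups overlapped and its log2 fold change of PD+LY against cAMP was -0.09 ± 0.11 (SE; adjusted p = 0.58). Per length, Hk1 made up 29.2% in cAMP, against 32.9% in 4OHT and 38.1% in PD+LY of the summed Hk1 and Hk2 level. Pfkfb4 (a relative of Pfkfb3), at 4.89 to 7.14 CPM the member with the fewest counts, was also called in no comparison.

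In lower glycolysis 4 of 6 genes fell at the first step, 5 at the second and all 6 over both steps. Of all tested genes 4.35%, 12.1% and 13.7% did. Pgk1 (phosphoglycerate kinase, the first step to make ATP), whose 2 motif matches are printed above, had 1597 and 1555 CPM in cAMP, 1045 and 1245 in 4OHT and 698 and 696 in PD+LY (gene body chrX:106187100-106203699). The groups were ordered without overlap. Its log2 fold change was -0.46 ± 0.09 (SE; adjusted p = 0.011) with 4OHT, -0.72 ± 0.09 (SE; adjusted p = 0.00030) with the inhibitors and -1.18 ± 0.09 (SE; adjusted p = 6.0e-06) overall. Eno1 (enolase 1, the general form) had 2361 and 2337 CPM in cAMP, 1419 and 1683 in 4OHT and 967 and 1206 in PD+LY (gene body chr4:150236721-150248879). It too was ordered without overlap, with log2 fold changes of -0.60 ± 0.11 (SE; adjusted p = 0.0074), -0.51 ± 0.11 (SE; adjusted p = 0.0065) and -1.11 ± 0.11 (SE; adjusted p = 3.5e-05) in the same comparisons. Pkm (pyruvate kinase) fell with log2 fold changes of -0.52 ± 0.11, -0.40 ± 0.11 and -0.92 ± 0.11. Pgam1 (phosphoglycerate mutase) fell at the second step and over both steps, with log2 fold changes of -0.42 ± 0.10 and -0.68 ± 0.10. Eno2 (the neuronal enolase) had a log2 fold change of 0.30 ± 0.17 in 4OHT against cAMP and fell, with -0.90 ± 0.18 (SE; adjusted p = 0.0039), in PD+LY against 4OHT. Gapdh fell at the first step and over both steps, with log2 fold changes of -0.40 ± 0.09 (SE; adjusted p = 0.017) and -0.57 ± 0.09, and had -0.17 ± 0.09 (SE; adjusted p = 0.19) at the second step. Its values are uncertain, since 172 annotated pseudogenes hold at least 90% of identity to it over at least 100 bases. Of these, 7 are listed with 1939 counts against 39789 for Gapdh. Other members also have pseudogenes this similar, though fewer, among them Ldha (15), Eno1 and Pkm (8 each), Aldoa and Gpi1 (5 each) and Pgk1 and Bnip3 (4 each). Their part in the counts was not tested. Eno1 has a near-identical copy, Eno1b, and how reads were divided between them was not tested. Eno1b fell in the same 3 comparisons (log2 fold changes of -0.58 ± 0.15, -0.44 ± 0.15 and -1.02 ± 0.15).

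At the pyruvate branch point, Pdk1 (pyruvate dehydrogenase kinase 1, which blocks the entry of pyruvate into the citric acid cycle) had 219 and 212 CPM in cAMP, 110.3 and 117 in 4OHT and 62.3 and 57.9 in PD+LY (gene body chr2:71873224-71903858). The level came down by close to 2-fold at each step, with no overlap. The log2 fold change was -0.92 ± 0.09 (SE; adjusted p = 0.00015) with 4OHT, -0.92 ± 0.09 (SE; adjusted p = 6.7e-05) with the inhibitors and -1.84 ± 0.10 (SE; adjusted p = 2.8e-07) overall. It was the only member whose first-step call held without any 1 of the 6 libraries. Ldha (lactate dehydrogenase A, which turns pyruvate to lactate) had 1407 and 1479 CPM in cAMP, 962 and 1171 in 4OHT and 777 and 835 in PD+LY, again in order without overlap, and fell with log2 fold changes of -0.44 ± 0.10, -0.40 ± 0.10 and -0.84 ± 0.10. Of 12 other genes of pyruvate entry into mitochondria, none was called at either step. Relative to cAMP, 1 rose and 4 fell in PD+LY, where 12.1% and 13.7% of all genes did: Mpc2 (a subunit of the mitochondrial pyruvate carrier) rose, with a log2 fold change of 0.62 ± 0.20, and Pdk4, Pdk3 and Pdha1 were among the 4, with -0.69 ± 0.18, -0.43 ± 0.13 and -0.40 ± 0.09.

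Of the 10 hypoxia response genes outside glycolysis, 2 fell at the first step, 8 at the second and 6 over both steps. Of all tested genes 4.35%, 12.1% and 13.7% did. Vegfa (the angiogenic growth factor) had 247 and 291 CPM in cAMP, 316 and 411 in 4OHT and 127 and 153 in PD+LY (gene body chr17:46016993-46032369). It was highest in 4OHT and lowest in PD+LY, and no groups overlapped. The first step was a log2 fold change of 0.43 ± 0.13 (SE; adjusted p = 0.070), the second -1.38 ± 0.14 (SE; adjusted p = 5.5e-05) and the total -0.94 ± 0.14 (SE; adjusted p = 0.00041). The first step, not called in the fit used here, was called by DESeq2 (adjusted p = 0.030), by edgeR with no filter, with only the 2 groups compared and with the replicate block (adjusted p = 0.0016), and without either PD+LY library, while leaving out a cAMP or 4OHT library gave an adjusted p of 0.074 to 0.51.

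Ankrd37 (an ankyrin repeat protein, a direct target of HIF-1) had 16.0 and 17.3 CPM in cAMP, 13.3 and 13.8 in 4OHT and 5.30 and 6.08 in PD+LY (gene body chr8:45996902-46005707). Here too PD+LY stood more than 2-fold under each of the other libraries. Its log2 fold change was -0.30 ± 0.16 (SE; adjusted p = 0.29) at the first step, -1.25 ± 0.17 (SE; adjusted p = 0.00050) at the second and -1.55 ± 0.17 (SE; adjusted p = 6.6e-05) overall. Counting ignored strand. Reads of Ankrd37 therefore cannot be told apart from those of Lrp2bp and Ufsp2 where they overlap on the opposite strand (406 bases). The same holds for Bnip3, described below, and Gm45507 (504 bases). Egln3 (PHD3, a prolyl hydroxylase that marks HIF for degradation and is itself induced by HIF) had 143 and 143 CPM in cAMP, 67.0 and 92.2 in 4OHT and 70.5 and 60.4 in PD+LY (gene body chr12:54178981-54203860). The cAMP libraries were above all others, while 4OHT and PD+LY overlapped. Its log2 fold change was -0.84 ± 0.14 (SE; adjusted p = 0.0041) with 4OHT and -1.12 ± 0.14 (SE; adjusted p = 0.00014) over both steps, and its second step was -0.28 ± 0.14 (SE; adjusted p = 0.16). Bnip3 (a receptor for mitophagy) had 285 and 264 CPM in cAMP, 158 and 190.1 in 4OHT and 147 and 124 in PD+LY (gene body chr7:138890836-138909519). The groups were ordered without overlap. It fell at both steps and over both steps, with log2 fold changes of -0.66 ± 0.12 (SE; adjusted p = 0.0059), -0.36 ± 0.12 (SE; adjusted p = 0.042) and -1.02 ± 0.12 (SE; adjusted p = 8.1e-05), but the second step was lost with only the 4OHT and PD+LY libraries in the fit or without any 1 of 5 libraries.

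Car9 (carbonic anhydrase 9) resembled Vegfa in order, at 15.3 and 12.9 CPM in cAMP, 17.7 and 20.1 in 4OHT and 12.4 and 10.3 in PD+LY. It fell, with a log2 fold change of -0.74 ± 0.17 (SE; adjusted p = 0.0092), under the inhibitors and its first step was 0.43 ± 0.17 (SE; adjusted p = 0.14). P4ha1 and P4ha2 (the catalytic subunits of collagen prolyl hydroxylase) fell at the second step, with log2 fold changes of -0.73 ± 0.11 (SE; adjusted p = 0.00085) and -0.41 ± 0.11 (SE; adjusted p = 0.017). So did Ndrg1 (a stress-induced protein) and Hilpda (a lipid droplet protein), with log2 fold changes of -0.83 ± 0.14 (SE; adjusted p = 0.0013) and -0.55 ± 0.17 (SE; adjusted p = 0.036). Mxi1 (a MYC antagonist) was the exception, at 77.5 and 70.8 CPM in cAMP, 79.9 and 71.2 in 4OHT and 93.0 and 92.5 in PD+LY. Its PD+LY libraries were above the other 4, and it rose, with a log2 fold change of 0.32 ± 0.10 (SE; adjusted p = 0.039), against cAMP, a call that was lost without any 1 of the cAMP or 4OHT libraries.

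**Figure D3:**
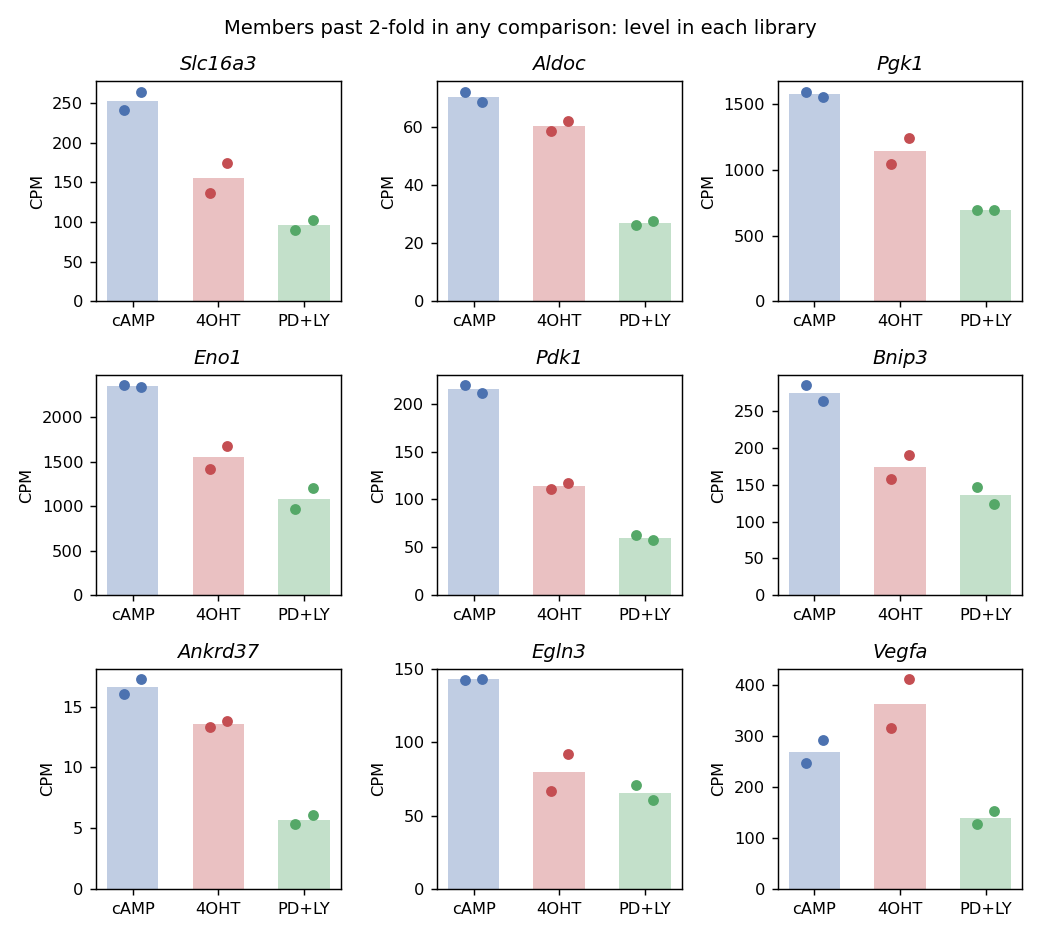
Level in CPM (vertical axis, from 0) of the 9 genes past 2-fold in any comparison, in each of the 6 libraries (points) with the mean of the 2 libraries of a group (bars). Vegfa is highest in 4OHT, and the other 8 are highest in cAMP.

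Because both steps share the 4OHT libraries, they were not correlated with each other. Their difference was tested as 1 contrast of the same fit, chosen after the data were seen: the second step minus the first. By it 8 members had the lower value at the second step and 2 the lower value at the first, where 6.63% and 5.02% of all tested genes were called in these directions. Vegfa differed most, with a log2 difference of -1.81 ± 0.23 (SE; adjusted p = 0.00072). On the same log2 scale Aldoc (-0.94 ± 0.19), Eno2 (-1.20 ± 0.30), Car9 (-1.17 ± 0.29), P4ha1 (-0.83 ± 0.19), Ndrg1 (-0.82 ± 0.23), Pfkp (-0.73 ± 0.17) and Gpi1 (-0.60 ± 0.16) differed in the same direction. Slc2a3 (log2 difference 0.53 ± 0.14) and Slc16a1 (0.64 ± 0.17) differed in the other. Only the Vegfa call held without any 1 library. For Ankrd37 the log2 difference was -0.95 ± 0.29 (SE; adjusted p = 0.052). By calls alone, 8 genes fell at both steps (Slc16a3, Tpi1, Pgk1, Eno1, Pkm, Ldha, Pdk1 and Bnip3), 6 at the first only and 15 at the second only, and 4 at neither. Over all tested genes 0.767% fell at both steps, 2.50% at the first with no call at the second, 9.81% at the second with no call at the first, and 72.6% were called at neither. For the other 23 genes a difference between the steps was not shown.

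Summed over the 33 genes, the transcripts took 2.52 and 2.57% of all counts in cAMP, 1.84 and 2.17 in 4OHT and 1.43 and 1.59 in PD+LY. The cAMP libraries were above the 4OHT libraries and these above the PD+LY libraries. The largest part came from the 8 most abundant members by mean CPM, which took 1.94 and 1.98% of all counts in cAMP, 1.37 and 1.63 in 4OHT and 1.07 and 1.21 in PD+LY. Lower glycolysis went from a mean of 0.903% in cAMP to 0.640% in 4OHT and 0.463% in PD+LY. Upper glycolysis went from a mean of 0.874% in cAMP to 0.758% in 4OHT and 0.526% in PD+LY. The hypoxia response genes outside glycolysis went from a mean of 0.156% in cAMP to 0.154% in 4OHT and 0.0966% in PD+LY. For these genes the 4OHT libraries, at 0.139% and 0.169%, lay on either side of the cAMP libraries, at 0.152% and 0.159%. The transporters stood at 0.450% in cAMP, against 0.334% in 4OHT and 0.339% in PD+LY, so that for them the mean was not lower in PD+LY than in 4OHT. With 2 libraries against 2 an exact permutation test of such a sum cannot give a 2-sided p under 0.3333, and none is given. By level per length, averaged over the 6 libraries, the order began with Aldoa, Pkm (629 CPM per kb), Pgk1 (508), Ldha (334), Slc2a3 (318) and Slc2a1 (313), and ended with Eno2 (4.48) and Pfkfb4 (1.20).

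**Figure D4:**
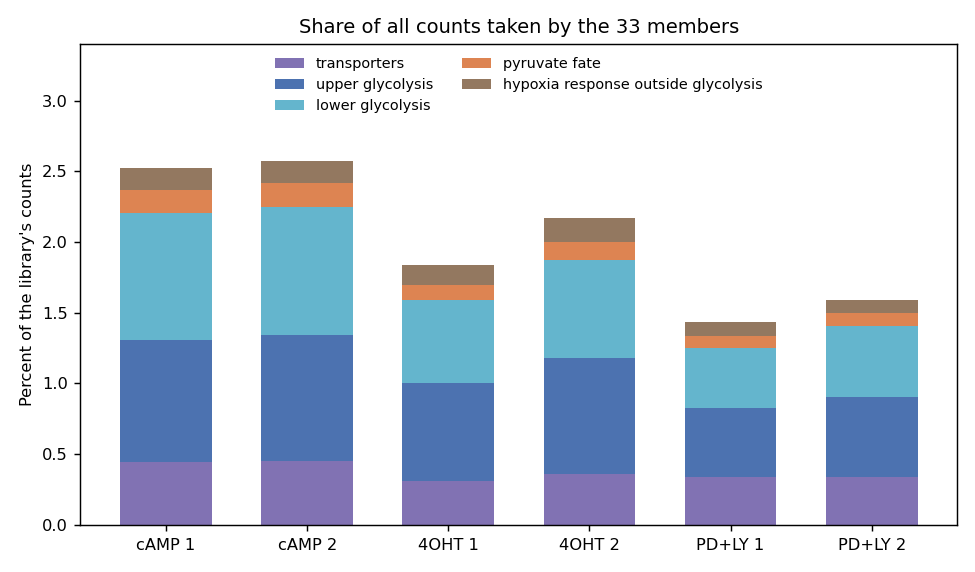
Share of each library's counts (vertical axis, percent, from 0) taken by the 33 genes, stacked by role, in the 6 libraries. The total runs from 2.52 and 2.57% in cAMP to 1.43 and 1.59% in PD+LY, and the lower of the 4OHT libraries is replicate 1.

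Hif1a, the oxygen-regulated subunit of HIF-1, had 142 and 131 CPM in cAMP, 141 and 143 in 4OHT and 176 and 138 in PD+LY, and Epas1 (HIF-2 alpha) had 157 and 159 CPM in cAMP, 149 and 147 in 4OHT and 147 and 144 in PD+LY. Neither was called in any comparison, with log2 fold changes of 0.20 ± 0.12 and -0.11 ± 0.09 in PD+LY against cAMP. HIF-1 alpha is regulated mainly at the level of the protein, which was not measured here. Of 12 regulators, 0 rose and 3 fell at the first step, 1 rose and 3 fell at the second, and 2 rose and 6 fell overall. Over all tested genes the shares that rose and fell were 4.04% and 4.35%, 10.7% and 12.1%, and 12.1% and 13.7%, so that a single regulator higher at the second step is no more than this background. Hif3a (a HIF relative that can oppose it) and Arnt2 (a partner of HIF) fell in PD+LY against cAMP, with log2 fold changes of -1.33 ± 0.16 (SE; adjusted p = 9.4e-05) and -1.22 ± 0.18 (SE; adjusted p = 0.00049). Myc, at 2.24 to 6.14 CPM, fell, with a log2 fold change of -1.01 ± 0.27 (SE; adjusted p = 0.019), with the inhibitors, while Mycn, at 81.2 to 164 CPM, rose, with a log2 fold change of 0.80 ± 0.13 (SE; adjusted p = 0.0010).

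A further list of 34 genes that low oxygen induces in many cells was compared in the same way. At the first step 1 rose and 3 fell, at the second none rose and 10 fell, 6 of them past 2-fold, and overall 1 rose and 17 fell. Over all tested genes, 4.04% rose and 4.35% fell at the first step, 10.7% and 12.1% at the second, and 12.1% and 13.7% over both. The median log2 fold changes were -0.15, -0.32 and -0.42. Ddit4 (REDD1, an inhibitor of mTORC1) had 239.6 and 248 CPM in cAMP, 145 and 170.3 in 4OHT and 41.7 and 42.8 in PD+LY and fell, with a log2 fold change of -1.90 ± 0.10 (SE; adjusted p = 9.8e-07), at the second step. Stc1 (the secreted stanniocalcin 1) had 20.3 and 16.0 CPM in cAMP, 26.2 and 26.3 in 4OHT and 5.35 and 4.91 in PD+LY, with a log2 fold change there of -2.36 ± 0.17 (SE; adjusted p = 7.2e-06). Adm (the vasodilator adrenomedullin) had 38.4 and 36.1 CPM in cAMP, 35.2 and 44.6 in 4OHT and 9.52 and 8.36 in PD+LY, with a log2 fold change there of -2.16 ± 0.16 (SE; adjusted p = 6.8e-06). For all 3 the PD+LY libraries were far under the other 4, which for Adm overlapped between cAMP and 4OHT. Trib3 (a pseudokinase also induced by ATF4) rose, with a log2 fold change of 0.81 ± 0.14 (SE; adjusted p = 0.0063), with 4OHT and fell, with a log2 fold change of -1.77 ± 0.15 (SE; adjusted p = 1.8e-05), with the inhibitors. Several genes of this list are known to respond to other stresses as well.

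**Figure D5:**
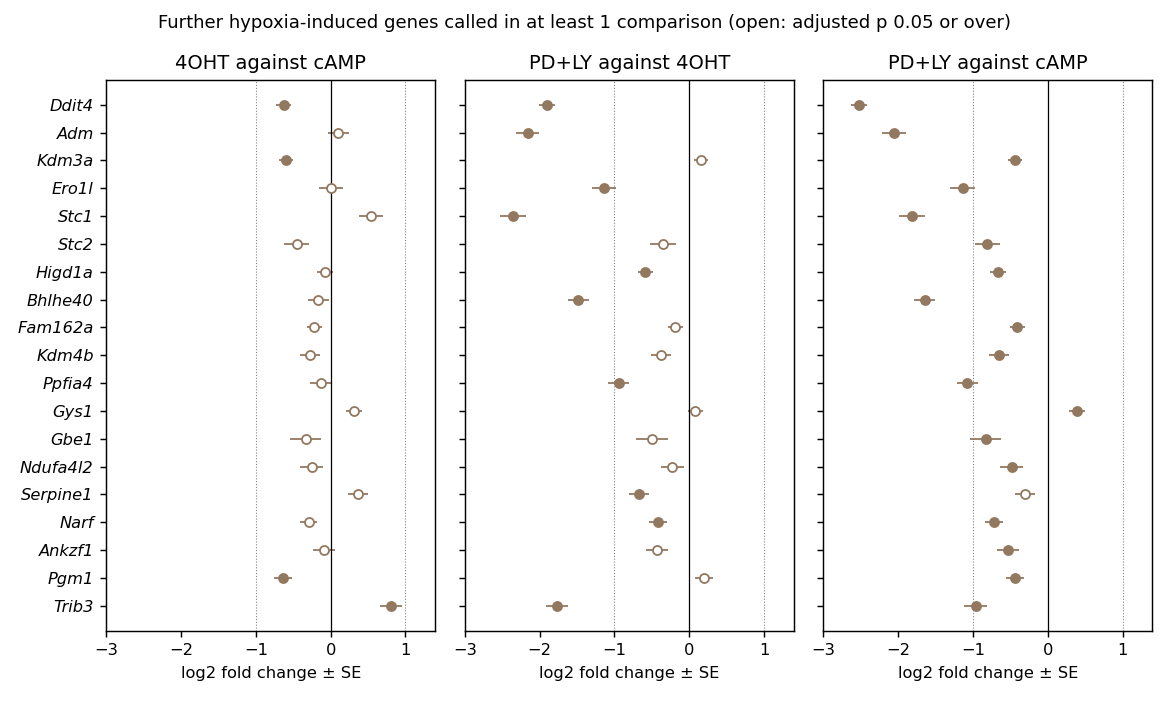
Log2 fold change (horizontal axis) with its standard error for the 19 of 34 further hypoxia-induced genes called in at least 1 comparison, filled where the adjusted p is under 0.05. Filled points to the right of 0 are Trib3 in 4OHT against cAMP and Gys1 in PD+LY against cAMP.

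Of 22 other isoforms and enzymes of glycolysis 17 were tested, and 2, 4 and 4 fell in the 3 comparisons, with none higher, where 4.35%, 12.1% and 13.7% of all tested genes fell. Nothing particular to this list, or to the short lists that follow, is read from these counts. Ldhd (the mitochondrial D-lactate dehydrogenase) and Slc2a4 (GLUT4, the insulin-responsive transporter) fell at the second step, with log2 fold changes of -1.89 ± 0.32 (SE; adjusted p = 0.0016) and -0.90 ± 0.25 (SE; adjusted p = 0.024). Of the 9 genes of the pentose phosphate pathway none was called with 4OHT, 2 rose with the inhibitors, where 10.7% of all genes did, and 3 rose and 1 fell over both steps, where 12.1% and 13.7% did. Rpia (ribose-5-phosphate isomerase) and Pgd (6-phosphogluconate dehydrogenase) rose at the second step, with log2 fold changes of 0.52 ± 0.16 (SE; adjusted p = 0.032) and 0.38 ± 0.10 (SE; adjusted p = 0.018). In PD+LY against cAMP Tktl2 (a transketolase-like protein) rose and G6pdx, the entry enzyme, fell, with log2 fold changes of 1.28 ± 0.31 and -0.51 ± 0.12. Of 7 gluconeogenic genes 6 were tested, and 3 fell in PD+LY against 4OHT, where 12.1% of all genes fell. Pck1 and Pck2 (the cytosolic and mitochondrial forms of PEPCK) had log2 fold changes of -2.91 ± 0.56 (SE; adjusted p = 0.0035) and -0.90 ± 0.12 (SE; adjusted p = 0.00030), Pck1 from a level of at most 1.61 CPM, and Pcx (pyruvate carboxylase) had -0.45 ± 0.12.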

How the data were processed

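RNA-seq was analysed in 6 libraries, 2 each of cAMP, 4OHT and PD+LY organoids, grouped by their labels. Per the study's methods and the labels, RNA of pooled wells was made into stranded libraries, and Trimmomatic was used to trim paired-end reads, HISAT2 to align them to mm10, and HTSeq to count them by gene, ignoring strand. Tool versions are not given in the sources used here. The deposited values are raw counts per gene symbol, which the authors did not normalize, and these counts were the starting point. Without strand, reads from stretches where genes overlap on opposite strands cannot be told apart by gene. How such reads were counted is not stated.

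The filterByExpr function (min.count of 10 and min.total.count of 15) left 15256 of 25239 genes. In R 4.3.3, edgeR 4.0.16 scaled the counts by TMM and fitted 1 quasi-likelihood model to all 6 libraries, and the Benjamini-Hochberg adjustment took in every tested gene. A gene is called at an adjusted p under 0.05, and the 2-fold threshold is applied beside it. The SE is the absolute log2 fold change over the square root of F. The fit was tested on simulated data. The labels do not say that the 2 libraries of a group are separate differentiations, so p-values measure only the spread between these libraries, and their common biological coefficient of variation was 0.105.

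Gene models are from GENCODE M21 (GRCm38). CPM per kb divides by the joint exon length of a gene. Similar pseudogenes were searched with BLAST+ 2.17.0. The 33 members and all other lists were chosen with earlier results of these data known. All 33 members are named, and at most 4 genes of each other list, those past both thresholds first, by size. Hif1a, Epas1 and Myc are named whatever their values. Alternatives were DESeq2 1.42.0, RLE size factors, library totals, no filter, a minimum of 10 counts in each library, only the 2 groups compared, the replicate block and leaving out each library.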

Additional observations from a re-analysis of the deposited data

How the results depend on the processing

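Over the 33 members, RLE size factors and the demand for at least 10 counts in every library changed no call or direction. DESeq2, library totals and no filter only added calls, and the fits of only the 2 groups compared lost 2, Bnip3 in PD+LY against 4OHT and Mxi1 in PD+LY against cAMP. Among all genes the calls in 4OHT against cAMP went from 1280 to 2186 with no filter, 2307 with only the 2 groups compared and 2373 with the replicate block, and the calls for the second step minus the first from 1777 to 2844 with no filter and 3110 with the replicate block. With the replicate block 17 members were called at the first step (4OHT against cAMP) and 27 at the second (PD+LY against 4OHT), and it took no member's call away. The labels do not say that a replicate number marks a shared batch, so pairing was not assumed. Across genes the deviations of same-numbered libraries correlated at 0.072, 0.059 and 0.207. With 2 libraries a group these correlations cannot settle whether the libraries are paired. With the block the calls over all genes also rose from 3469 to 4742 in PD+LY against 4OHT and from 3925 to 5057 in PD+LY against cAMP. Of the other lists, the further hypoxia-induced genes called in 4OHT against cAMP went from 4 to 9 with the replicate block, pyruvate entry from 0 to 1, the pentose phosphate pathway from 0 to 1 and gluconeogenesis from 0 to 2, the last also with DESeq2, which gave 3 in place of 5 for pyruvate entry in PD+LY against cAMP. The cause of these shifts was not tested.

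Leaving out each library in turn moved the counts most. In 4OHT against cAMP the members called ranged from 1 to 16, those called down from 1 to 15, those past both thresholds from 0 to 1, all genes called from 194 to 2263 and all past both thresholds from 150 to 484. In PD+LY against 4OHT the same counts ranged from 10 to 23, 10 to 22, 3 to 5, 1140 to 4123 and 610 to 1177. In PD+LY against cAMP all genes called ranged from 2319 to 4260. For the second step minus the first the members called ranged from 1 to 12, those called down from 1 to 10 and all genes from 178 to 3245. The fits without 1 library leave a lone library that is assumed to vary like the other groups, and they have fewer degrees of freedom.

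The log2 fold changes that changed sign were near 0 and not called. In 4OHT against cAMP, leaving out each library gave a range from -0.16 to 0.091 for Hk2, -0.028 to 0.13 for Pfkp, -0.077 to 0.27 for Pfkfb4, -0.034 to 0.24 for P4ha1, -0.29 to 0.23 for Ndrg1 and -0.051 to 0.11 for Mxi1. In PD+LY against 4OHT it gave -0.038 to 0.18 for Slc16a1 and -0.17 to 0.075 for Hk2, and in PD+LY against cAMP -0.17 to 0.0038 for Hk2. Replicate libraries differed by more than counting error in each group (4.53 to 17.7 by chi-square over its degrees of freedom, where counting error alone gives about 1).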
